A study of Homo sapiens with 8 samples.

Results

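NUP98 ChIP-Seq in human embryonic stem cells (ESCs) gave 2499 binding regions, which were all rows of the authors' ESC list and 35.2% of the 7104 regions in the 3 lists of the series. The cells were HUES6, a human embryonic stem cell line grown without feeder cells, and the labels name no treatment. NUP98 was pulled down with the polyclonal antibody NUP98Ab1 (catalogue number 2292) after crosslinking with 1% formaldehyde for 10 min, and normal rabbit IgG (catalogue number 2729) gave the control library. The list of HUES6-derived neural progenitor cells (NeuPCs), made with the same antibody, held 3205 regions and is set beside the ESC list where the comparison helps. Each condition had 1 library, so no value below has an error from replicates, and no difference between ESCs and NeuPCs was tested. A list of regions measures no expression, so the labelled cell type could not be checked by marker genes.

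NUP98 is a nucleoporin, a protein of the pores through which molecules pass between nucleus and cytoplasm. It carries the phenylalanine-glycine repeats that line the transport channel, and it is mobile, so it is also found away from the pores inside the nucleus. It is not known to read a DNA sequence itself, and chromatin recovered with it can be bound through partner proteins. A ChIP-Seq region is a stretch where more fragments were recovered than the peak caller accepted as background, and the question here was where such stretches lay in pluripotent cells. The regions are given by their positions in hg19. They were not assigned to genes and their sequences are not shown, since no annotation or genome in these coordinates was used here.

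The ESC regions were short, scattered and close to the lower limit of the list. They were 49 to 4410 bp long with a median of 121 bp, and the middle 50% measured 112 to 127 bp. All regions together covered 315 kb, and no 2 of them overlapped. The list gives each region a score from the peak caller, without a unit and without read numbers, so the depth behind a score is unknown and scores were compared within a list. The median score was 54.48, and the lowest was 50.09, at a region of 138 bp on chromosome 19 from 17390680 to 17390817. A score from 50 to below 55 was given to 1316 regions (52.7%, 95% exact binomial interval 50.7 to 54.6%), and a score from 55 to below 60 to 561 regions (22.4%, interval 20.8 to 24.1%). These intervals, like all intervals given here, cover counting error only. Together these bands held most of the list.

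Above the bulk there was a steep rise. Scores of 60 to below 80 were held by 564 ESC regions, scores of 80 to below 100 by 29 regions and scores of 100 or more by another 29. Of those 29 highest regions, 17 lay in a single group on chromosome 1, and 12 lay elsewhere. No region had a score between 170.88 and 199.36. At 199.36 or more stood 17 regions, of which 16 belonged to the group on chromosome 1 and the remaining region lay on chromosome 19. The mean score of the whole list was 62.50, and it was 58.27 without the group. Leaving out the region on chromosome 19 as well brought the mean to 57.04, the SD over regions from 89.8 to 8.48 and the highest score to 170.88. The median hardly moved, from 54.48 to 54.42 without the group.

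**Figure D1:**
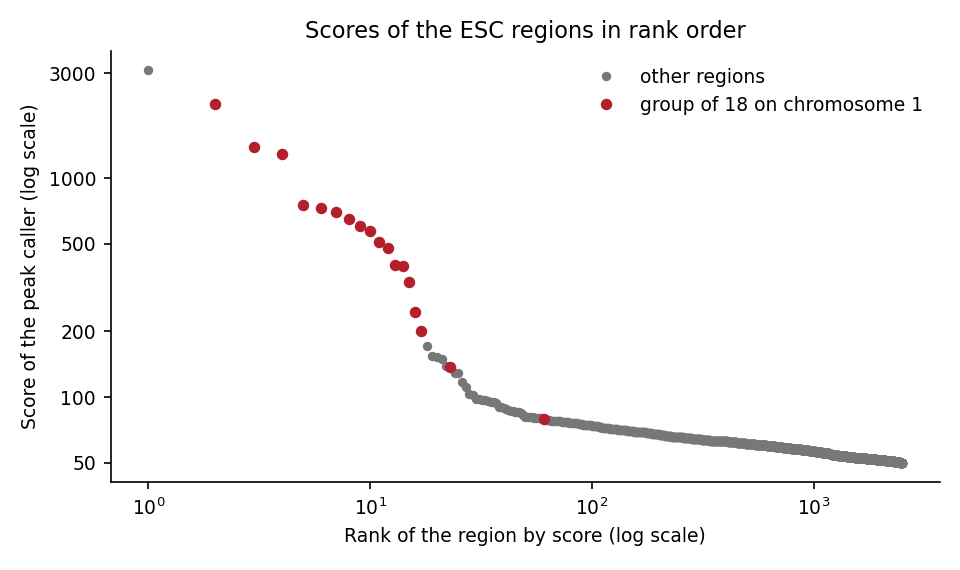
Score of each of the 2499 ESC regions (log scale) against its rank from the highest score (log scale), with the 18 regions of the group on chromosome 1 in red and all others in grey. Red points fill ranks 2 to 17 between 199.36 and 2177.08, the region at rank 1 has a score of 3100, and the remaining regions run from 170.88 down to 50.09.

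The region at rank 1 lay on chromosome 19 from 50411429 to 50413069. It was 1641 bp long, the second longest of the list, and stood alone, with the nearest other ESC region 45.2 kb away. Its score was written as 3100, a round value, and whether the caller sets an upper limit there is not stated in the list. Apart from the group on chromosome 1, the next locus was a region of 269 bp on chromosome 5 from 14347177 to 14347445, which scored 170.88.

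The group on chromosome 1 ran from 186283107 to 186304516 and held 18 regions within 21410 bp, where a group is a run of regions with gaps of at most 10 kb. The regions were separate blocks with empty stretches between them. The blocks were 57 to 338 bp long with a median of 157.5 bp, and the 17 gaps between them measured 66 to 3780 bp with a median of 814 bp. The shortest gap separated a block of 245 bp with a score of 727.39 from a block of 104 bp with a score of 402.63. The widest one lay between the block at 13.483 kb from the first base, with a score of 1283.25, and the block at 17.47 kb, with a score of 336.71.

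Scores in the group were uneven along its length. The first block, of 57 bp, scored 137.29 and the last, also of 57 bp, scored 79.04, so the lowest scores lay at both ends. Blocks between 3.452 and 12.05 kb from the first base scored from 245.25 to 750.07. The highest score, 2177.08, belonged to the longest block, of 338 bp, at 19.086 kb, and the neighbouring block at 20.347 kb scored 1386.79. Longer blocks had higher scores within the group (Spearman's rho 0.84 over 18 regions of 1 library, given as a description). The flanks of the group held few regions. The next ESC region upstream was 15.2 kb away with a score of 57.52, and downstream there was none for 4164 kb, where a region scored 50.91.

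**Figure D2:**
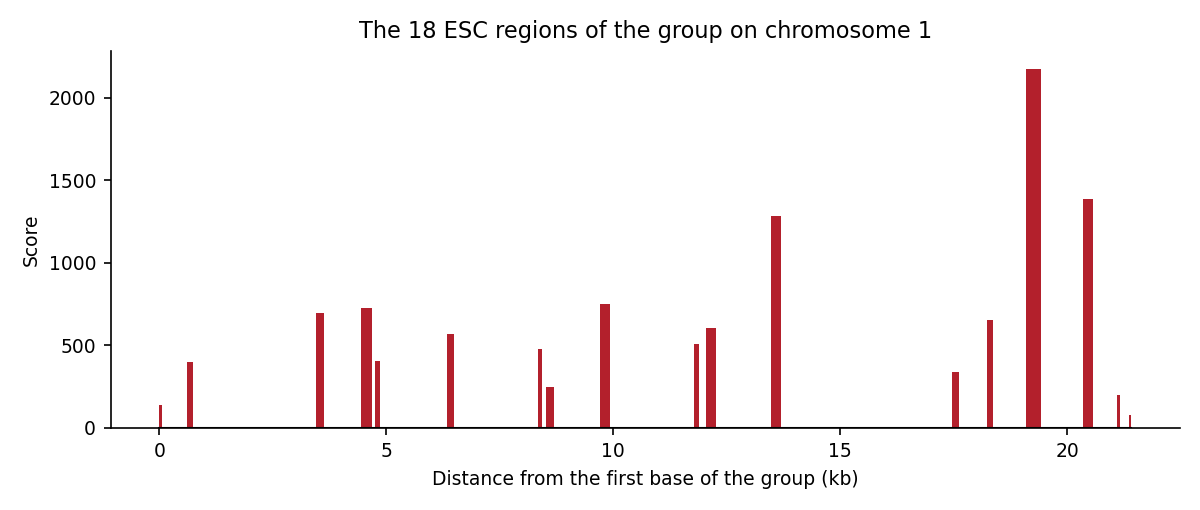
Score (vertical axis) of the 18 ESC regions of the group on chromosome 1 against the distance from the first base of the group in kb, with each bar as wide as its region. The regions stand apart from each other, the highest bar (2177.08) lies at 19.086 kb, and the bars at both ends are the lowest.

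Among the 15 loci with the highest scores, a group counting as 1 locus, 12 were single regions. They were found on chromosomes 1, 3, 4, 5, 6, 9, 10, 11, 19 and X and on an unlocalized contig of chromosome 19, with chromosomes 1, 5 and 19 each present more than once. Their shapes differed widely. The locus on chromosome 1 from 142535447 to 142539856 scored 153.79 and was the longest region of the list, at 4410 bp. A region on chromosome 10 from 79333362 to 79333420 scored 148.95 with a length of only 59 bp, and the regions on chromosome 3 from 90413727 to 90413779 and on X from 32572931 to 32572983 scored 128.27 and 111.05 with 53 bp each. Thus 4 of the 15 loci had a top region under 80 bp and 8 a top region of 200 bp or more, while the list as a whole held 48 and 52 such regions. On chromosome 9, from 35913579 to 35914202, a region of 624 bp scored 138.54. Loci with a low rank among the 15 were close to the bulk, the last of them at 98.42.

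No NeuPC region overlapped any of these 15 loci. For the 14 loci on chromosomes, the nearest NeuPC region was 20.9 to 1336 kb away, with a median of 269 kb. The closest was that to the region on chromosome 4 from 7865633 to 7865889, which scored 103.37. Overlap and distance were not computed for the rest of the ESC list. Neighbouring NeuPC regions were a mean of 0.923 Mb apart. Whether these 15 loci lay farther from NeuPC regions than other ESC regions did is therefore not known.

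Length and score were weakly related over the whole list (Spearman's rho -0.075 over 2499 regions), and the sign depended on the part of the list. Among the 1877 regions with a score under 60, longer regions had lower scores (rho -0.21), and among the 1316 with a score under 55 this was more marked (rho -0.47). From 60 to below 100 longer regions had higher scores (rho 0.23 over 593 regions). The bands were cut on the score itself, so each rho also depends on where the cuts lie. Pearson's r of the log2 values over all regions was positive, at 0.23, and 0.24 without the group on chromosome 1. It was 0.13 without the group and the region with the highest score, and 0.043 over the 2470 regions with a score under 100, so its size rested on few high regions. Regions of 1 library share their depth and their caller, so these coefficients are descriptions and no p was computed.

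The lower end of the list had a fine structure. Many regions had exactly the same length and the same score as others. A length and score combination shared by at least 10 regions was found 51 times, and 1253 of the 2499 regions (50.1%, interval 48.2 to 52.1%) fell on one of these combinations, with lengths of 98 to 137 bp and scores of 50.21 to 62.97. In the ESC list as a whole there were only 628 distinct scores. The most frequent combination, 125 bp with 51.15, occurred 68 times, and 126 bp with 50.91 occurred 58 times.

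The combinations lined up. At each length from 112 to 127 bp the most common score was lower than at the length 1 bp shorter, falling by 0.24 to 0.28 per bp, from 54.59 at 112 bp to 50.66 at 127 bp. All 15 steps went down. A lower line with at least 10 regions per combination ran in parallel at 13 of the 16 lengths, with scores 0.94 to 0.96 below the first. Of the 1291 regions of these lengths, 667 sat on the upper line and 313 on the lower one, which together made 75.9%. A sparser line lay above both, for instance 10 regions at 61.21 among those of 124 bp, where the lines below stood at 51.4 and 50.45. Within a line, a difference in score between regions was a difference in length. Some scores instead stayed the same over several lengths, and that with the most lengths was 63, shared by 30 regions of 10 different lengths from 76 to 86 bp. The NeuPC list had the same kind of structure, with 71 combinations that held 1424 of its regions (44.4%, interval 42.7 to 46.2%).

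**Figure D3:**
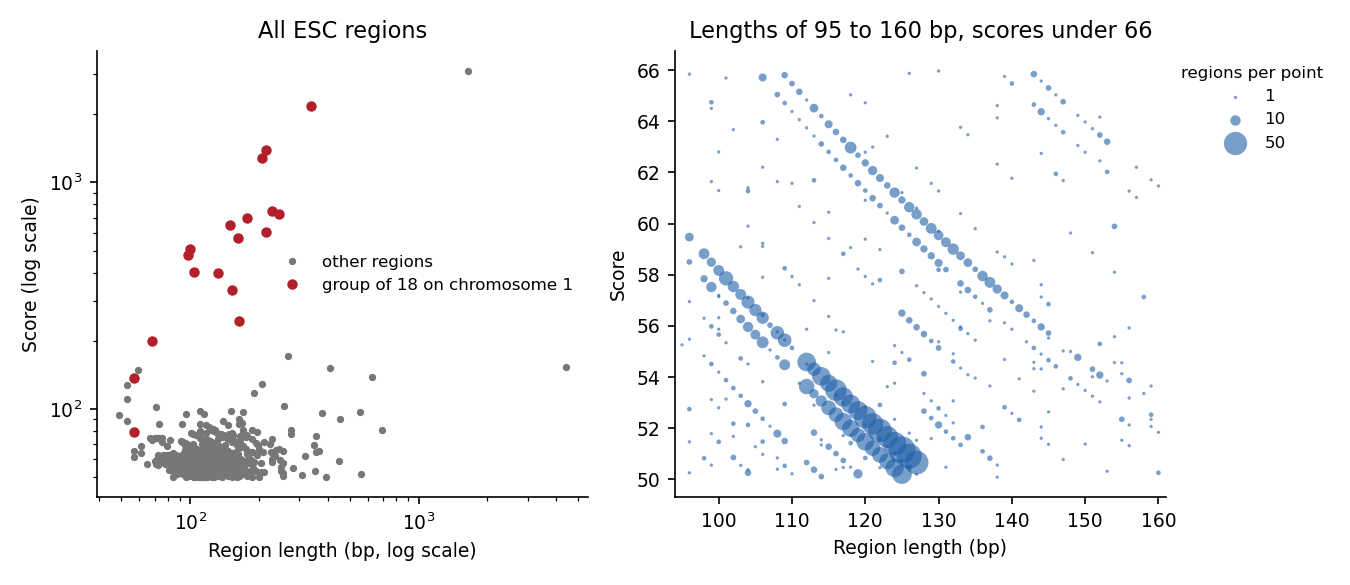
Length in bp and score of the ESC regions. The left plot shows all regions on log scales, with the group of 18 on chromosome 1 in red, and the right plot shows regions of 95 to 160 bp with scores under 66, where the area of a point is proportional to the number of regions at that length and score. The larger points form parallel falling lines, of which the densest passes 54.59 at 112 bp and 50.66 at 127 bp.

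Short regions stood above the bulk in score, while long regions were mixed. The 48 regions under 80 bp had a median score of 63, and 40 of them (83.3%) scored 60 or more, against 24.9% of the whole list. Of the 52 regions of 200 bp or more, 6 belonged to the group on chromosome 1 and 8 lay on contigs that are not part of an assembled chromosome. A long region did not need a high score. A region of 559 bp on chromosome 9 from 68416919 to 68417477 scored 51.9, and one of 395 bp on chromosome 21 from 10760614 to 10761008 scored 50.18.

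Contigs outside the assembled chromosomes held 20 regions on 13 contigs, and these were longer and higher than most. Their median length was 179.5 bp and their median score 64.57. A length of 200 bp or more was reached by 8 of the 20 (40.0%, interval 19.1 to 63.9%), against 38 of the 2461 regions on chromosomes outside the group on chromosome 1 (1.54%, interval 1.09 to 2.11%). A score of 60 or more was reached by 14 of the 20 (70.0%, interval 45.7 to 88.1%), against 590 of the 2461 (24.0%, interval 22.3 to 25.7%). The highest was on the contig 19_gl000208_random from 87760 to 87965, with a score of 128.69, followed by a region of 557 bp on Un_gl000232 with 97.13. These contigs are unplaced or unlocalized sequences, with 1 alternate haplotype of chromosome 17 among them. How the authors' mapping treated reads with several positions is not given in the sources used here. The NeuPC list had 18 regions on 12 contigs, 4 of which also held ESC regions.

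On chromosomes 1 to 22 and X the ESC list held 2468 regions, or 0.842 per Mb (95% exact Poisson interval 0.809 to 0.876), with each chromosome counted from the first to the last region of the ESC and NeuPC lists. The density ranged from 0.623 per Mb on chromosome 4 (119 regions, interval 0.516 to 0.746) to 1.32 per Mb on chromosome 22 (46 regions, interval 0.966 to 1.76). The intervals of chromosomes 14, 20 and 22 lay above the overall density, with 1.14, 1.10 and 1.32 regions per Mb. Those of chromosomes 3 and 4 lay below it, with 0.663 and 0.623. With 23 intervals of 95%, about 1.15 would miss the overall density through counting error alone. Chromosome 21 also ranked high, at 1.13 per Mb, but its 43 regions gave an interval of 0.816 to 1.52 that included the overall density. From chromosome 4 upwards, neighbours in the order of densities had overlapping intervals throughout. The spans include wide empty stretches. Without the largest gap of each chromosome, the overall density was 0.902 per Mb, with 1.34 on chromosome 21 and 1.14 on chromosome 9. Chromosomes 14, 20 and 22 then had 1.21, 1.22 and 1.42, and chromosomes 3 and 4 had 0.692 and 0.651. No intervals were computed for that alternative, so whether the same chromosomes would depart from the overall density is not known.

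Chromosomes 18 and 19 spanned 76.9 and 57.6 Mb here. Chromosome 19 is gene-rich and usually lies in the interior of the nucleus, while 18 is gene-poor and usually lies at the nuclear periphery. In ESCs chromosome 19 held 0.990 regions per Mb (57 regions, interval 0.750 to 1.28) and chromosome 18 held 0.871 (67 regions, interval 0.675 to 1.11), so the densities did not differ beyond counting error. Leaving out the group lowered the density of chromosome 1 by less than its counting interval. The chromosome held 215 regions, or 0.865 per Mb (interval 0.753 to 0.989), and 197 regions, or 0.793 per Mb, without the group. The density of X was 0.752 per Mb (113 regions, interval 0.620 to 0.905).

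**Figure D4:**
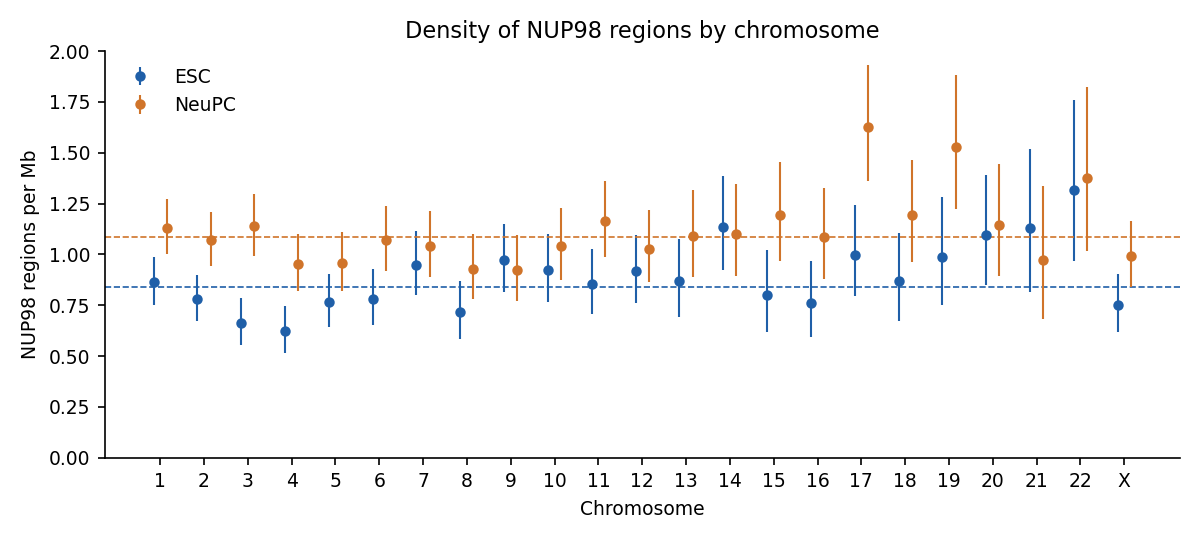
NUP98 regions per Mb on chromosomes 1 to 22 and X in ESCs (blue) and NeuPCs (orange). Points give the regions divided by the span in Mb from the first to the last region of both lists, bars are 95% exact Poisson intervals of the count, and dashed lines mark the densities over all these chromosomes, 0.842 and 1.08. The ESC points run from 0.623 on chromosome 4 to 1.32 on chromosome 22.

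Side by side, the NeuPC list had more regions on 20 of the 23 chromosomes and 1.08 regions per Mb in all. Chromosomes 9, 14 and 21 had more regions in ESCs. On chromosome 9 there were 137 ESC and 130 NeuPC regions, so ESCs held 51.3% of the sum (interval 45.1 to 57.4%), against 43.7% over all these chromosomes. On chromosome 3 there were 130 and 223 regions, with an ESC share of 36.8% (interval 31.8 to 42.1%). These were the only chromosomes whose interval missed 43.7%, of 23 examined. About 1.15 of 23 such intervals would miss it through counting error alone. On chromosome 17 the ESC list held 0.999 regions per Mb and the NeuPC list 1.63, with an ESC share of 38.0% (interval 31.5 to 44.9%). No test between the cell types was possible with 1 library each, and the libraries' depths were not used here.

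Scores and lengths were similar between chromosomes 1 to 22 and X. Median scores ran from 53.22 on chromosome 6 to 56.69 on chromosome 3, and median lengths from 118 bp on chromosome 21 to 124 bp on chromosome 9. The share of regions with a score of 60 or more ran from 18.05% on chromosome 6 (interval 11.9 to 25.6%) to 32.8% on chromosome 18 (interval 21.8 to 45.4%), and on none of the 23 chromosomes did the interval exclude the 24.9% of the whole list.

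Neighbouring regions on these chromosomes were a median of 0.736 Mb apart (2445 gaps, middle 50% from 0.287 to 1.60 Mb), with a mean of 1.19 Mb. Random placement at 1 constant density gives gaps of exponential form, which with the mean of 1.19 Mb would have a median of 0.826 Mb. That form takes 1 mean for all chromosomes, although their densities ran from 0.623 to 1.32 per Mb and the spans include unsequenced blocks. How far this pooling accounts for the departures below was not tested. Short gaps were more frequent than in that form. Under 10 kb there were 60 gaps where the form gives 20.4, and under 1 kb there were 21 where it gives 2.05. The group on chromosome 1 supplied 17 of the 60 and 10 of the 21. Without it 43 gaps were under 10 kb, where the form gives 20.1, and 11 were under 1 kb, where it gives 2.02. At the wide end, 59 gaps measured 5 Mb or more where the form gives 36.8. They include the widest, of 21.4 and 21.0 Mb on chromosomes 1 and 9, where the assembly holds large unsequenced blocks. How many of the other wide gaps span unsequenced parts was not checked. In NeuPCs the median gap was 0.589 Mb, and 50 of 3153 gaps were under 10 kb, where the form with the NeuPC mean gives 34.0.

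**Figure D5:**
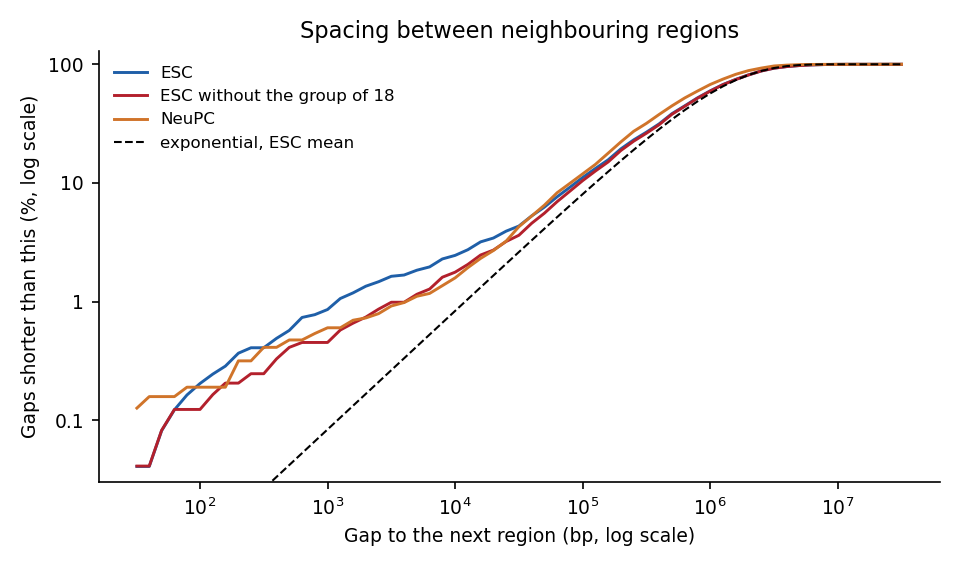
Share of gaps between neighbouring regions on chromosomes 1 to 22 and X that are shorter than a given length (both axes on log scales), for ESCs, for ESCs without the group of 18 on chromosome 1, for NeuPCs, and for an exponential distribution with the ESC mean of 1.19 Mb. The ESC curves come close to the dashed line at long gaps and lie above it at short gaps, where 60 ESC gaps are under 10 kb, or 43 without the group. The NeuPC list has a shorter mean gap, 0.923 Mb, so the dashed line is not the form for its curve.

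The close neighbours outside the group were mostly pairs of weak regions. Counting each group as 1 locus over the whole list, with Y and the contigs included, left 2436 loci. Of these, 2390 were single regions, 44 were pairs, 1 was a group of 3 and 1 was the group of 18. The group of 3 lay on Y, which held 11 ESC regions, and its highest score was 59.84. The higher score of a pair had a median of 59.37, and 1 pair reached 100, on chromosome 11 from 1212795 to 1213562 with 117.27. The closest pair of the list lay on chromosome 10, where a region ending at 5423326 and the next starting at 5423353 were 26 bp apart with scores of 56.93 and 59.47. On chromosome 5 the regions ending at 176018753 and starting at 176018796 were 42 bp apart, with scores of 57.33 and 98.48.

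No difference in crowding between low and high scores was seen, but the check was coarse. Without the group, a neighbour within 100 kb was found for 17.9% of the 1310 regions scoring under 55 (interval 15.9 to 20.1%), 20.8% of the 553 from 55 to below 60 (interval 17.5 to 24.4%), 20.5% of the 550 from 60 to below 80 (interval 17.2 to 24.2%) and 18.9% of the 37 at 80 or more (interval 7.96 to 35.2%). The intervals overlapped throughout, which is not a test of a difference. Both members of a close pair count as having a neighbour, so the regions are not independent. The top band, with 37 regions, had a wide interval and could hide a difference.

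In windows of 1 Mb the regions were spread unevenly, though moderately. Of 2950 windows, 1354 (45.9%) held no ESC region, where a Poisson distribution of the same mean gives 1278, and 17 held 5 or more, where it gives 5.05. Of the empty windows, 40 lay wholly inside the widest empty stretches, on chromosomes 1 and 9, where the assembly holds large unsequenced blocks. The variance of the counts was 1.28 times their mean, and 1.16 times without the group on chromosome 1. The fullest window, with 19 regions, was the one with that group. Without it the fullest held 9 regions, on chromosome 4 from 190000001 to 191000000, with scores of 50.19 to 88.94. Windows with 6 regions lay on chromosome 9 from 68000001 to 69000000 and from 140000001 to 141000000, and on chromosome 13 from 20000001 to 21000000. The other 12 windows with at least 5 regions were spread over chromosomes 5, 6, 7, 9, 10, 11, 12, 17, 18 and 19.

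The widest empty stretches lay on chromosome 1 from 121135299 to 142535446 and on chromosome 9 from 45410246 to 66454683, at 21.4 and 21.0 Mb. Both are the places of the large blocks of heterochromatin next to the centromere, which the assembly leaves unsequenced. The longest region of the list, with 4410 bp and a score of 153.79, bordered the stretch on chromosome 1, and a region of 204 bp with a score of 52.59 bordered that on chromosome 9. A stretch of 11.9 Mb on chromosome 16 from 35207360 to 47068088 followed, between regions scoring 50.53 and 74.38. Whether it and the other wide stretches also span unsequenced parts of the assembly was not checked. On chromosome 13, empty stretches of 9.55 and 10.96 Mb lay side by side between 54078717 and 74587398, separated by 1 region with a score of 57.9.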

How the data were processed

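The series has 8 ChIP-Seq libraries here, 1 for each combination of cell type and antibody. Mapping and region calling were the authors' work. The deposited ESC and NeuPC lists name MACS, whereas the study's methods give Audic-Claverie statistics in Genomatix software, and version, parameters and control library are not given in the sources used here. The score of each region in both lists is that of the authors' peak caller, with no unit stated. In the deposited IMR90 list each row has the authors' adjusted p-value, and only its rows were counted. The submitters' notes name hg19, and positions are given counted from 1.

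All rows of the ESC list were used, without a filter, and its region numbers ran from 1 to 2499 without a break. Regions with gaps of at most 10 kb formed a group. Densities, gaps and windows were computed on chromosomes 1 to 22 and X. The intervals printed are exact at 95% and cover counting error only. No test was made, since there was 1 library per condition, and the exponential and Poisson values are arithmetic. Read numbers were not used, so the depth behind a region is unknown. The members, summaries and alternatives were chosen with earlier results of these data known, and the alternatives are listed in the closing section. Promoter, gene and motif counts were planned but not run, as they need an hg19 annotation or genome. The functions were tested on 20 simulated lists. Python 3.11.15, numpy 2.4.6, pandas 2.3.3 and scipy 1.17.1 were used.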

Additional observations from a re-analysis of the deposited data

How the results depend on the processing

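Of 44 comparisons with an alternative for these summaries and for the densities of chromosomes 1, 4 and 22, 29 gave a value within 1.5 times for counts, or within the 95% interval of the reported value for densities, medians and Spearman's rho. Intervals of medians and rho treated the regions of 1 library as independent, which they are not. They served only as a limit for calling a value unchanged. The 50% of regions with the highest score gave 1249 regions, 0.418 regions per Mb, a median gap of 1.55 Mb and a median length of 119 bp. The first 3 follow from keeping fewer regions, as did lower densities of chromosomes 1, 4 and 22. Chromosome 22 was the densest and chromosome 4 the sparsest under every alternative tried for density. Leaving out the largest gap of each chromosome, an alternative chosen after seeing the data, raised the density to 0.902 per Mb. High scores numbered 58 at a limit of 80, and 12 at a limit of 100 without the group on chromosome 1. With gaps of at most 2 kb, the largest group held 10 regions.

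The relation of length to score changed its sign with the measure. Pearson's r of log2 values was 0.23 over all regions, 0.24 without the group on chromosome 1, 0.13 without the group and the region with the highest score, and 0.043 without scores of 100 or more, where Spearman's rho over all regions was -0.075. The last 3 settings were chosen after seeing the data. The cause was not tested. No paired analysis was possible because there was a single library for each cell type and antibody. The promoter, gene and motif alternatives and the density by chromosome length were not run, since no annotation or genome in hg19 was used here. Depth could not be set beside any of these counts.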
